A study of Homo sapiens with 5 samples.

Results

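Axon guidance ligands and receptors were examined in 4 trastuzumab-resistant human gastric cancer lines and in 1 sensitive line. The members were all genes whose platform symbol names a Slit, Robo, semaphorin of classes 3 to 7, plexin, neuropilin, ephrin, Eph receptor, netrin, netrin-G or UNC5 protein, or DCC. They comprise 70 of the 20044 genes with a named probe and carry 115 probes. The resistant lines are numbered N87-TR1 to N87-TR4, the sensitive line is NCI-N87, and each has 1 array. Trastuzumab is an antibody against the receptor ERBB2, which is amplified in NCI-N87. All lines were grown in one serum-supplemented medium, and RNA was taken from subconfluent cells. The labels do not say how the resistant lines were derived or whether trastuzumab was present at harvest. Nothing says that the 4 came from separate derivations, and a p-value reflects only how much the 4 resistant arrays vary, possibly for technical reasons.

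Guidance cues steer growing axons by attracting or repelling them, and the same cues position and separate cells in epithelia and vessels. Secreted Slits bind Robo receptors, netrins bind DCC and UNC5 receptors, semaphorins bind plexins with neuropilins as co-receptors for most of class 3, and membrane-bound ephrins bind Eph receptor tyrosine kinases on neighbouring cells. In the gut epithelium, EphB receptors and B-type ephrins are known for sorting cells along the crypt.

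Levels below are background-corrected, quantile-normalised log2 probe signals, which rank a gene between lines but not different genes against each other. A probe counts as detected on an array where its detection p, set against negative controls, is under 0.01. Between 10248 and 11069 genes were detected in the resistant lines, against 10381 in NCI-N87. Across the 12478 tested genes, which are not independent replicates, the resistant lines correlated with NCI-N87 at r = 0.751 to 0.764 and with one another at r = 0.943 to 0.979, so NCI-N87 stands apart from the 4 other arrays. The arrays hold no genotype, so descent of the resistant lines from NCI-N87 was not checked, and every difference below is between lines as labelled. ERBB2 itself had levels of 10.22, 10.73, 10.31 and 10.54 in N87-TR1 to N87-TR4, against 15.90 in NCI-N87, and fell 43.7-fold (adjusted p = 8.54e-05). Of 8 epithelial marker genes, 7 fell in the resistant lines and 1 did not pass. The summed normalised signal of this list, less the offset, was 1130 to 3140 in the resistant lines, against 89843 in NCI-N87. KRT19 was not detected in any resistant line, while CDH1 and EPCAM were detected in all 4. Both tested gastric markers fell, MUC1 by 4.64 and MUC6 by 1.76 on the log2 scale (adjusted p = 8.75e-05 and 0.0330), with a summed signal of 357 to 449 in the resistant lines, against 8356 in NCI-N87. Of the other gastric markers, TFF1, TFF2, GKN1, GKN2 and CLDN18 were detected on none of the 5 arrays. Of 9 neuronal markers 6 were tested and 2 rose, NEFL (at least 12.4-fold) and SNAP25 (at least 1.71-fold). TUBB3 and MAP2 were lower in all 4 resistant lines and did not pass (log2 differences -1.88 and -1.14, adjusted p = 0.143 and 0.0566). The summed signal of the 6 was 10832, 12147, 5087 and 1466 in N87-TR1 to N87-TR4, against 2534 in NCI-N87, and RBFOX3, STMN2 and DCX were detected nowhere. NEFM, which did not pass, holds most of that sum in N87-TR1 to N87-TR3, with levels of 12.95, 13.26, 11.58 and an undetected 5.74 in N87-TR4, against 5.49 in NCI-N87. No endothelial marker was detected, 1 of 7 fibroblast markers was tested and did not pass, and the leukocyte list had 2 tested genes of which 0 passed. Of 2 tested glial markers OLIG2 rose and MBP fell. The part of these marker differences in the results below was not tested.

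Members were detected more often in the resistant lines, where 42, 41, 38 and 41 of the 70 genes had a detected probe in N87-TR1 to N87-TR4, against 30 in NCI-N87. In all, 23 members were detected on all 5 arrays, 15 on 4, 9 on 1 to 3 and 23 on none. The 47 detected on at least 1 array were tested with limma, 4 resistant lines against the 1 NCI-N87 array, whose spread is assumed to equal theirs. A call below is a Benjamini-Hochberg adjusted p under 0.05 over all 12478 genes. By this test 11 members rose (23.4% of the 47), where 12.5% of all tested genes did. Another 9 fell (19.1%), where 10.5% of all tested genes did. The filter matters for the rises: 17 tested members were not detected in NCI-N87 and entered only through the resistant lines, and 10 of the 11 that rose are among them. Of the 9 that fell, 3 were undetected in all 4 resistant lines. Among the 23 members detected on all 5 arrays, 1 rose and 4 fell, where 9.11% and 6.90% of the 8679 tested genes detected on all 5 did. The median log2 difference of the 47 was 0.37, against 0.07 over all tested genes. With genes at background set to their bound the median of the 47 was 0.03. No such bounded median was computed over all genes, so the 0.03 has no background. Ligands had 4 higher and 3 lower of 24 tested, and receptors 7 higher and 6 lower of 23. Within the 47 members, the levels of each resistant line correlated with those of NCI-N87 at r = 0.214 to 0.316 and with those of the other resistant lines at r = 0.911 to 0.957, as a description over genes that share arrays.

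**Figure D1:**
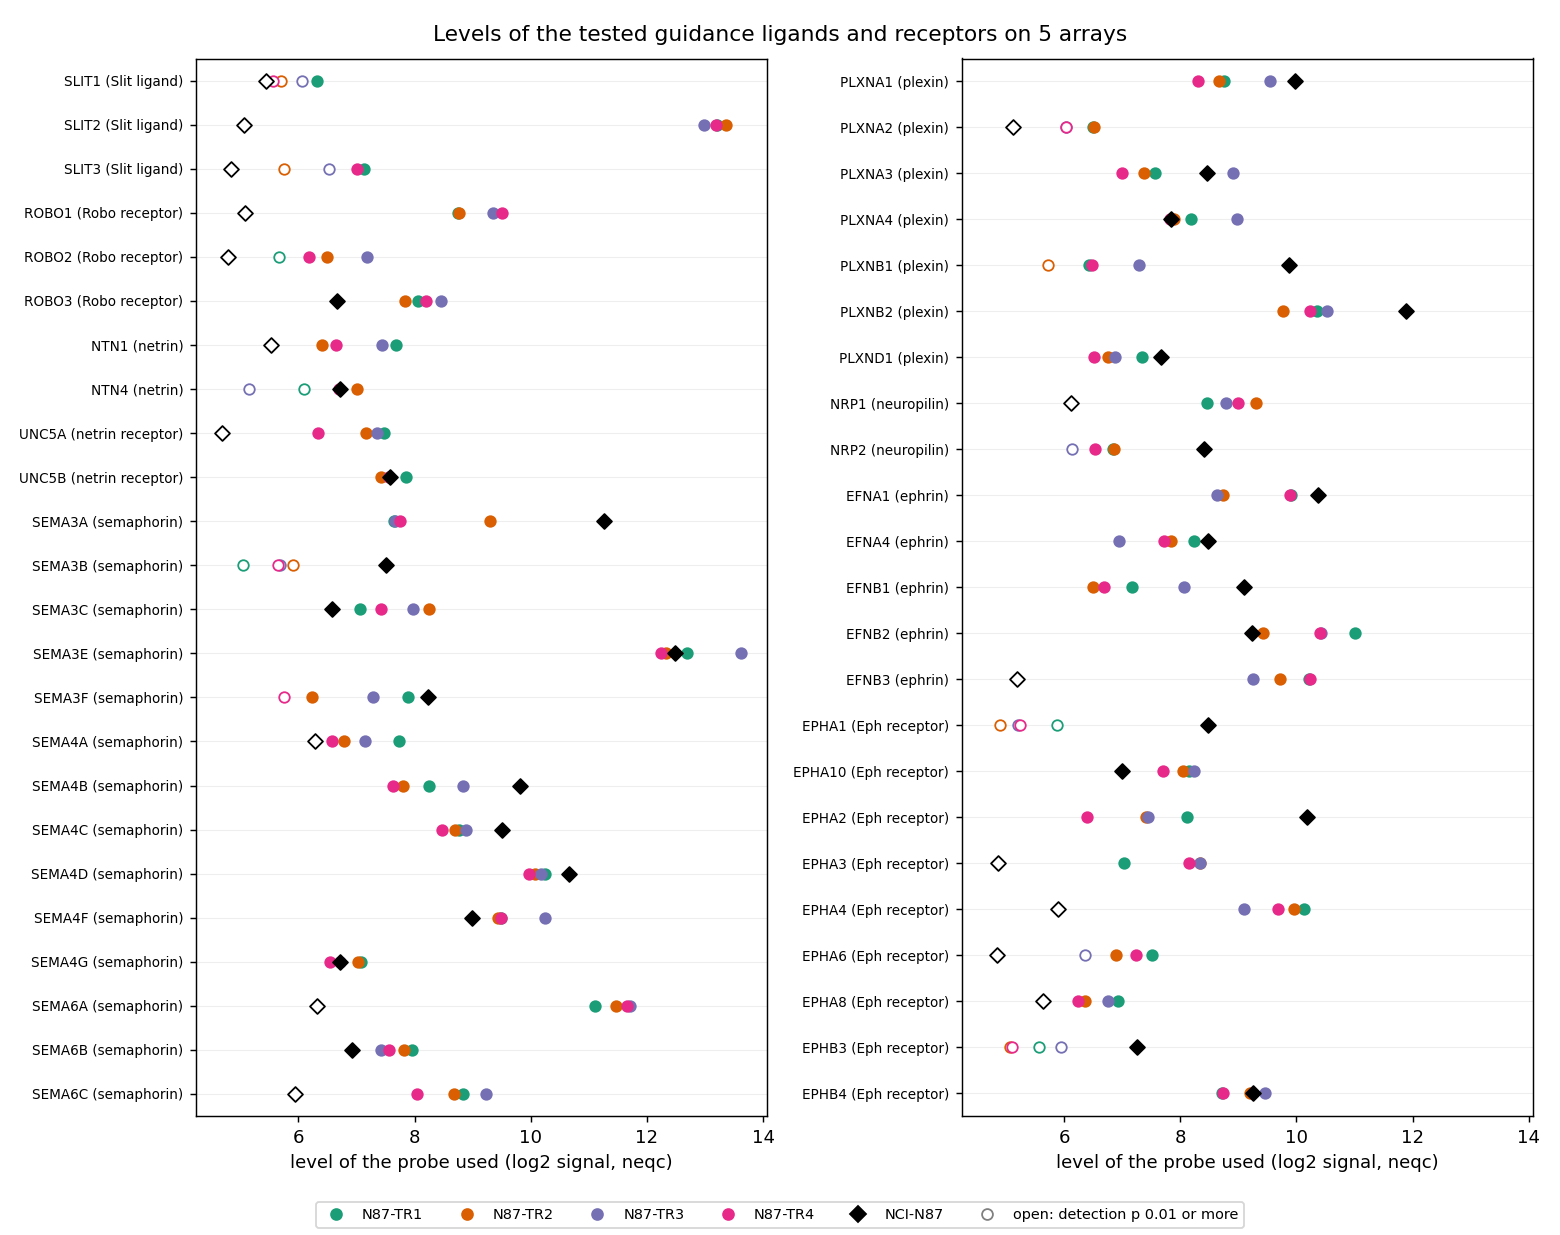
Level of the probe used for each of the 47 tested members, as log2 signal on the horizontal axis. Circles are the 4 resistant lines, diamonds are NCI-N87 and open symbols mark arrays on which that probe was not detected. SLIT2 lies between 12.99 and 13.35 in the resistant lines, against an undetected 5.07 in NCI-N87, while SEMA3A lies between 7.64 and 9.31 in the resistant lines, against 11.26 in NCI-N87.

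Slits and Robos include the steepest rise of any member, SLIT2, a secreted repellent and the main ligand of ROBO1 and ROBO2. SLIT2 stood at levels of 13.20, 13.35, 12.99 and 13.20 in N87-TR1 to N87-TR4, against 5.07 in NCI-N87, where its probe was not detected. The lines lie far from NCI-N87 and close to one another, and SLIT2 was at least 109-fold higher (log2 difference 8.11 ± 0.30, SE, adjusted p = 3.48e-05). Its scanner signal before any correction was 8276, 10757, 8396 and 11696 in the resistant lines, against 112.2 in NCI-N87. SLIT1 and SLIT3, the paralogs, did not pass. SLIT3 had levels of 7.14, 5.74, 6.52 and 7.02 in the resistant lines, against 4.84 in NCI-N87 (adjusted p = 0.0595, and 0.0196 without N87-TR2, its lowest resistant line). SLIT3 was detected in N87-TR1 and N87-TR4 only, and SLIT1 in N87-TR1 only.

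ROBO1, the receptor for Slits, had levels of 8.75, 8.77, 9.36 and 9.51 in N87-TR1 to N87-TR4, against 5.08 in NCI-N87. All 4 resistant lines lie above NCI-N87, where it was not detected, and the rise was at least 6.37-fold (log2 difference 4.01 ± 0.40, adjusted p = 0.000715). Of the 3 ROBO1 probes 1 was detected, so the value rests on that probe alone. ROBO3, a divergent family member known from axons that cross the midline, was detected on all 5 arrays. Its levels were 8.06, 7.84, 8.45 and 8.20 in the resistant lines, against 6.67 in NCI-N87, with no overlap. ROBO3 rose 2.76-fold (log2 difference 1.47 ± 0.34, adjusted p = 0.0220, and 0.0589 without N87-TR4), and it is the one member that rose among those detected on all 5 arrays. ROBO2, the other neuronal Slit receptor, had levels of 5.66, 6.49, 7.18 and 6.19, against 4.78 in NCI-N87, and did not pass (adjusted p = 0.0810, and 0.0422 without N87-TR3). Without N87-TR3, its highest resistant line, the log2 difference of ROBO2 was smaller, at 1.33 instead of 1.60. ROBO2 was not detected in NCI-N87 or N87-TR1, and its bound was 0.969-fold, so no rise above background is shown. The endothelial receptor ROBO4 was detected on no array.

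Promoter sequence is shown for the members whose changes were the largest in each direction among the 9 called members with a single start in RefSeq (GRCh38.p14), SLIT2 and EPHA3 for the rises and EPHA1 and EPHA2 for the falls. Each line gives the 250 bases before the annotated start, 5′ to 3′ on the gene's strand. Capitals mark GC boxes (GGGCGG on either strand) and E-boxes (CAGGTG on either strand), and TATAAA was also searched on both strands.
SLIT2 (chr4:20251655-20251904, plus strand): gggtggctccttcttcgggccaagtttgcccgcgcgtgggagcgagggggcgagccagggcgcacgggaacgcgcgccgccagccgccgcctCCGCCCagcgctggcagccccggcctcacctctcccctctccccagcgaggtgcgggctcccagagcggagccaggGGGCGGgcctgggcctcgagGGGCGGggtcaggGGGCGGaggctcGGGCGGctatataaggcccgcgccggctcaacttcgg
EPHA3 (chr3:89107371-89107620, plus strand): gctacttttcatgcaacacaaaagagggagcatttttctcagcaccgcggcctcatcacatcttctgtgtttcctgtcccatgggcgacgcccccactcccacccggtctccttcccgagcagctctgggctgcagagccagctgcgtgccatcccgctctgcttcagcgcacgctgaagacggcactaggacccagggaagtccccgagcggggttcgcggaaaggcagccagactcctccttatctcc
EPHA1 (chr7:143408857-143409106, minus strand): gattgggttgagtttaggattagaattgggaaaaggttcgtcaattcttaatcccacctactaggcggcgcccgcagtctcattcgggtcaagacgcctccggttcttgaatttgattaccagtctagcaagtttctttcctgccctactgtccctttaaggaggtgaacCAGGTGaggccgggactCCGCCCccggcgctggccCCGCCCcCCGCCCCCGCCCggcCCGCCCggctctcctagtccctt
EPHA2 (chr1:16156070-16156319, minus strand): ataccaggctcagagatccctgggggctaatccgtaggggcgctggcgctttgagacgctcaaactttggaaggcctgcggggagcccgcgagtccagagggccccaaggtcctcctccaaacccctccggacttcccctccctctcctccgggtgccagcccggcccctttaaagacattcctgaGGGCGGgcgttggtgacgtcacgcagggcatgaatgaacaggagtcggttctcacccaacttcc
The GC content was 77.2% for SLIT2, 61.2% for EPHA3, 59.2% for EPHA1 and 63.2% for EPHA2, where the median over all promoters was 58.0%. SLIT2 had 30 CpG dinucleotides, EPHA3 15, EPHA1 17 and EPHA2 15, against a median of 11. GC boxes numbered 5 before SLIT2, 0 before EPHA3, 5 before EPHA1 and 1 before EPHA2, none overlapping another match. An E-box was found before EPHA1 only, and TATAAA before none of the 4. No other TATA form was searched, so the tatataag near the end of the SLIT2 window was not counted. Of all 35116 promoter windows of this length, 42.6% held a GC box, 17.5% this E-box and 10.7% TATAAA. Of the 92 windows of the 59 members found in the table, 64 held a GC box (69.6%), 13 the E-box (14.1%) and 3 TATAAA (3.26%). The matches describe letters in these windows and give no binding.

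Netrins and their receptors were rarely detected, with 2 of 6 ligands and 2 of 5 receptors tested. DCC, UNC5C and UNC5D among the receptors and NTN3, NTN5, NTNG1 and NTNG2 among the ligands were detected on no array. UNC5A, a receptor that mediates repulsion from netrin-1, had levels of 7.48, 7.17, 7.35 and 6.33 in N87-TR1 to N87-TR4, against 4.69 in NCI-N87. It was detected in all 4 resistant lines and not in NCI-N87, with N87-TR4 the lowest of the 4. UNC5A was at least 1.58-fold higher (log2 difference 2.39 ± 0.47, adjusted p = 0.0127). UNC5B, its paralog with roles in vessels, differed by 0.03 ± 0.31 (adjusted p = 0.960), with NCI-N87 inside the range of the resistant lines. The ligand NTN1 (netrin-1) was detected in all 4 resistant lines and not in NCI-N87. Its levels were 7.68, 6.41, 7.43 and 6.64 in the resistant lines, against 5.53 in NCI-N87, and it did not pass (adjusted p = 0.0872). NTN4 differed by -0.48 ± 0.67 (adjusted p = 0.654), with NCI-N87 inside the range of the resistant lines.

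Semaphorins are taken by class. Of the 5 tested class 3 members, which are secreted, 2 fell and 0 rose. Of the 6 class 4 members 1 fell, and of the 3 tested class 6 members, which are transmembrane, 2 rose and 0 fell. Whether the classes differ was not tested.

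SEMA3A, which collapses growth cones through NRP1 and A-type plexins, had levels of 7.64, 9.31, 7.67 and 7.75 in N87-TR1 to N87-TR4, against 11.26 in NCI-N87. Every resistant line lies below NCI-N87, and N87-TR2 stands above the other 3. SEMA3A fell 9.01-fold (log2 difference -3.17 ± 0.66, adjusted p = 0.0158). SEMA3B, described elsewhere as a tumour suppressor, had levels of 5.05, 5.91, 5.68 and 5.65 in the resistant lines, none of them detected, against a detected 7.51 in NCI-N87. It was at least 2.24-fold lower (log2 difference -1.94 ± 0.39, adjusted p = 0.0135). Among class 3 genes that did not pass, SEMA3E, which binds PLXND1 without a neuropilin, had levels of 12.69, 12.34, 13.62 and 12.24, against 12.49 in NCI-N87 (difference 0.23 ± 0.54, adjusted p = 0.804). NCI-N87 lies within the range of the resistant lines for SEMA3E, and N87-TR3 is the highest array. SEMA3C, a ligand for both neuropilins, differed by 1.10 ± 0.49 (adjusted p = 0.156). SEMA3F, the main ligand of NRP2, differed by -1.44 ± 0.77 (adjusted p = 0.234) and ranged from 5.75 in N87-TR4, where it was not detected, to 7.88 in N87-TR1. SEMA3D and SEMA3G were detected on no array.

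SEMA4B had levels of 8.24, 7.80, 8.84 and 7.63 in N87-TR1 to N87-TR4, against 9.82 in NCI-N87. The resistant lines do not reach the level of NCI-N87, and SEMA4B fell 3.24-fold (log2 difference -1.70 ± 0.49, adjusted p = 0.0473). This call is the least firm of the 20, since the adjusted p was 0.0910 without N87-TR1, 0.0926 without N87-TR2, 0.0872 without N87-TR4 and 0.0776 without a detection filter. SEMA4D, the ligand of PLXNB1, had levels of 10.24, 10.08, 10.18 and 9.98, against 10.66 in NCI-N87 (difference -0.54 ± 0.29, adjusted p = 0.240). SEMA4C, which binds PLXNB2, had levels of 8.77, 8.70, 8.89 and 8.47, against 9.51 in NCI-N87 (difference -0.80 ± 0.31, adjusted p = 0.111). For both ligands all 4 resistant lines lie below NCI-N87, by less than the test required. SEMA4F had levels of 9.49, 9.43, 10.25 and 9.49, against 8.99 in NCI-N87, and did not pass (adjusted p = 0.277). SEMA4A differed by 0.77 ± 0.47 (adjusted p = 0.292) and SEMA4G by 0.14 ± 0.34 (adjusted p = 0.815).

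SEMA6A, which binds PLXNA2 and PLXNA4, had levels of 11.10, 11.47, 11.70 and 11.65 in N87-TR1 to N87-TR4, against 6.32 in NCI-N87. It was not detected in NCI-N87, the 4 resistant lines lie close together, and the rise was at least 33.3-fold (log2 difference 5.16 ± 0.34, adjusted p = 0.000128). SEMA6C, of the same class, had levels of 8.83, 8.69, 9.23 and 8.04 in the resistant lines, against 5.94 in NCI-N87, again undetected. Its lowest resistant line, N87-TR4, is well above NCI-N87, and SEMA6C was at least 4.83-fold higher (log2 difference 2.76 ± 0.46, adjusted p = 0.00645). SEMA6B differed by 0.77 ± 0.33 (adjusted p = 0.143). SEMA6D, with SEMA5A, SEMA5B and SEMA7A, was detected on no array.

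Plexins, the signalling receptors of semaphorins, had 2 lower, 0 higher and 5 not passing of 7 tested. Both that fell are B-type. PLXNB1, the receptor of SEMA4D and a known partner of ERBB2 and MET at the membrane, had levels of 6.43, 5.72, 7.29 and 6.49 in N87-TR1 to N87-TR4, against 9.87 in NCI-N87. It was detected in NCI-N87, N87-TR1, N87-TR3 and N87-TR4 but not in N87-TR2, and it fell 10.5-fold (log2 difference -3.39 ± 0.55, adjusted p = 0.00577). The size for PLXNB1 rests partly on signals near background, as the lowest detected level was 6.33 in N87-TR1 and 6.17 in N87-TR4. Without background correction its log2 difference was -2.41. PLXNB2, the receptor of SEMA4C, had levels of 10.36, 9.77, 10.53 and 10.23, against 11.88 in NCI-N87, with all 4 resistant lines below. PLXNB2 fell 3.16-fold (log2 difference -1.66 ± 0.37, adjusted p = 0.0193). PLXNA1, which pairs with neuropilins, had levels of 8.75, 8.66, 9.55 and 8.30, against 9.98 in NCI-N87, and did not pass (adjusted p = 0.132, and 0.0175 without N87-TR3). PLXNA3 had levels of 7.57, 7.37, 8.91 and 7.00, against 8.47 in NCI-N87, so that N87-TR3 lies above NCI-N87 and the other 3 below it. It did not pass (adjusted p = 0.475, and 0.0396 without N87-TR3). PLXNA4 had levels of 8.18, 7.89, 8.97 and 7.82, against 7.85 in NCI-N87 (adjusted p = 0.632). PLXNA2, detected in N87-TR1 and N87-TR2 only, differed by 1.16 ± 0.35 (adjusted p = 0.0534; leaving out N87-TR3 gave 0.0311), and PLXND1, the SEMA3E receptor, by -0.80 ± 0.38 (adjusted p = 0.186). The bound for PLXNA2 was 0.899-fold, so no rise above background is shown for it. PLXNB3 and PLXNC1 were detected on no array.

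The neuropilins moved in opposite directions. NRP1, co-receptor of SEMA3A and of the growth factor VEGF-A, had levels of 8.47, 9.30, 8.78 and 9.00 in N87-TR1 to N87-TR4, against 6.12 in NCI-N87, where neither of the 2 probes detected in resistant lines was detected. It was at least 5.51-fold higher (log2 difference 2.77 ± 0.38, adjusted p = 0.00282). NRP2, co-receptor of SEMA3F and of VEGF-C, had levels of 6.84, 6.86, 6.13 and 6.53 in the resistant lines, against 8.41 in NCI-N87. No resistant line reaches NCI-N87, N87-TR3 falls below detection, and NRP2 fell 3.54-fold (log2 difference -1.82 ± 0.38, adjusted p = 0.0151). Without background correction the log2 difference of NRP2 was -1.15. All probes of both neuropilins detected anywhere kept these directions, with log2 differences of 2.77 and 3.62 for the 2 NRP1 probes and of -1.82, -1.85, -2.02 and -2.85 for the 4 NRP2 probes.

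**Figure D2:**
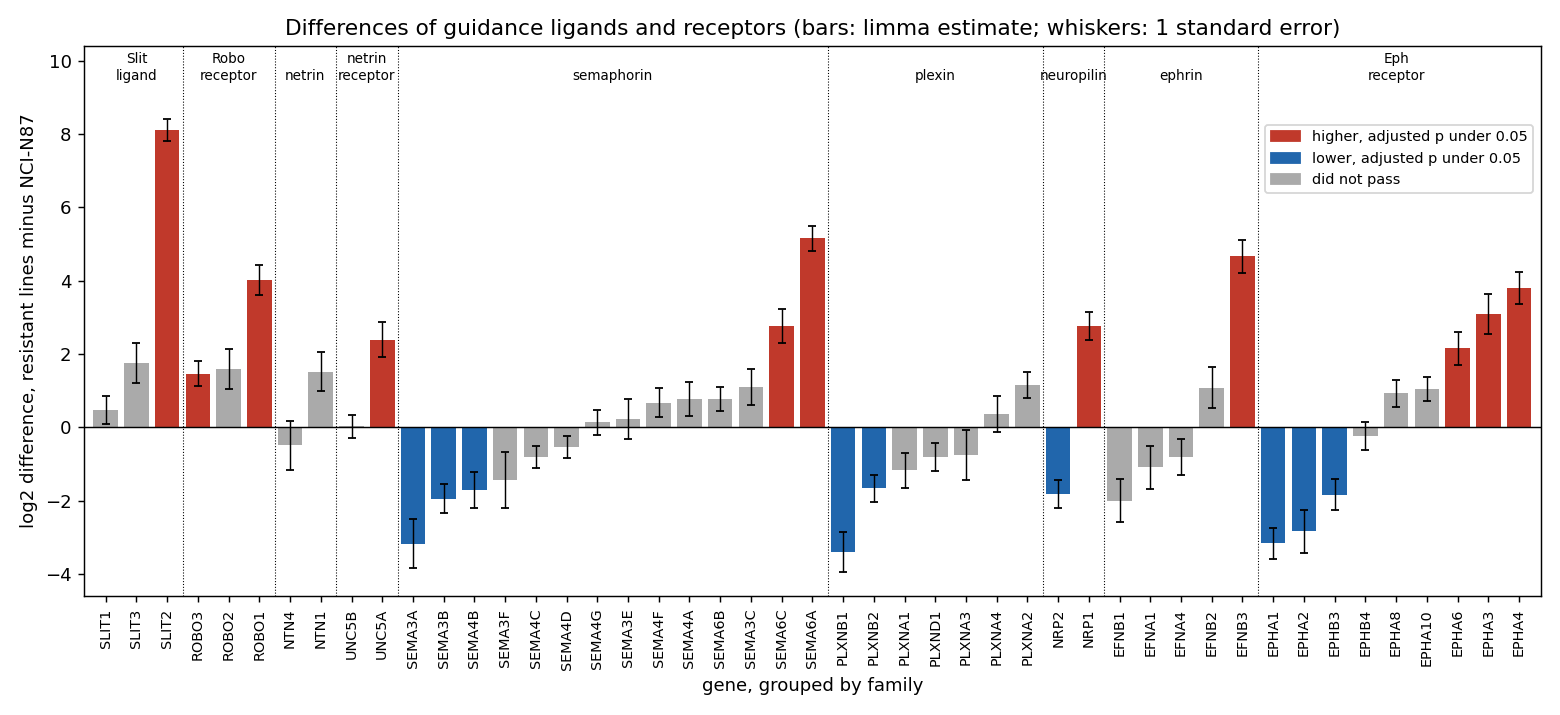
Log2 difference of each tested member, resistant lines minus NCI-N87, grouped by family along the horizontal axis, with limma standard errors as whiskers. Red bars are the 11 members that rose, blue bars the 9 that fell and grey bars the 27 that did not pass; Eph receptors and semaphorins hold bars in both directions, from 3.81 for EPHA4 to -3.16 for EPHA1 and from 5.16 for SEMA6A to -3.17 for SEMA3A.

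Among ephrins, the ligands of Eph receptors, 1 of 5 tested genes rose. EFNB3, a transmembrane ephrin known from the midline of the nervous system, had levels of 10.21, 9.72, 9.25 and 10.23 in N87-TR1 to N87-TR4, against an undetected 5.19 in NCI-N87. All resistant lines lie far above NCI-N87, and EFNB3 was at least 10.8-fold higher (log2 difference 4.67 ± 0.45, adjusted p = 0.000547). EFNB1, another B-type ephrin, had levels of 7.16, 6.49, 8.07 and 6.68 in the resistant lines, against 9.09 in NCI-N87, and lay at the edge of the threshold (log2 difference -1.99 ± 0.59, adjusted p = 0.0524, and 0.00456 without N87-TR3). EFNB2, the arterial ephrin and ligand of EPHB4, had levels of 11.01, 9.42, 10.42 and 10.41, against 9.23 in NCI-N87 (difference 1.08 ± 0.56, adjusted p = 0.220). Every resistant line lies above NCI-N87 for EFNB2, but N87-TR2 only just. EFNA1, a lipid-anchored ligand of EPHA2, had levels of 9.90, 8.74, 8.63 and 9.88, against 10.37 in NCI-N87 (difference -1.09 ± 0.59, adjusted p = 0.238). EFNA4 differed by -0.80 ± 0.49 (adjusted p = 0.293), and EFNA2, EFNA3 and EFNA5 were detected on no array.

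Eph receptors moved both ways, with 3 higher, 3 lower and 3 not passing of 9 tested. The 3 that rose are EphA receptors and were not detected in NCI-N87. EPHA4, which binds ephrins of both types, had levels of 10.14, 9.95, 9.10 and 9.68 in N87-TR1 to N87-TR4, against 5.90 in NCI-N87. The groups do not overlap, and EPHA4 was at least 9.79-fold higher (log2 difference 3.81 ± 0.44, adjusted p = 0.00125). EPHA3, a receptor of A-type ephrins, had levels of 7.03, 8.35, 8.34 and 8.15, against 4.87 in NCI-N87. N87-TR1 is lower than the 3 other resistant lines but still above NCI-N87, and EPHA3 was at least 2.91-fold higher (log2 difference 3.10 ± 0.54, adjusted p = 0.00795). EPHA6 had levels of 7.51, 6.90, 6.37 and 7.24, against 4.85 in NCI-N87, and was not detected in N87-TR3. It was at least 1.50-fold higher (log2 difference 2.15 ± 0.46, adjusted p = 0.0170). One probe of 3 for EPHA3 and 1 of 6 for EPHA6 was detected, and these values rest on it.

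EPHA2, a receptor common in epithelia and carcinomas, had levels of 8.12, 7.41, 7.44 and 6.39 in N87-TR1 to N87-TR4, against 10.18 in NCI-N87. It remained detected in every resistant line, lowest in N87-TR4, and fell 7.14-fold (log2 difference -2.83 ± 0.60, adjusted p = 0.0162). EPHA1, another epithelial Eph receptor, was undetected in all 4 resistant lines, at 5.88, 4.89, 5.21 and 5.24, against 8.47 in NCI-N87. It was at least 4.35-fold lower (log2 difference -3.16 ± 0.42, adjusted p = 0.00231). EPHB3, which takes part in sorting cells along intestinal crypts, was likewise undetected in the resistant lines, at 5.56, 5.07, 5.95 and 5.10, against 7.25 in NCI-N87. EPHB3 was at least 1.87-fold lower (log2 difference -1.83 ± 0.42, adjusted p = 0.0212, and 0.0506 without N87-TR4). EPHB4, the EFNB2 receptor, had levels of 8.72, 9.20, 9.46 and 8.74, against 9.26 in NCI-N87, which lies inside their range (adjusted p = 0.722). EPHA10, which lacks kinase activity, differed by 1.05 ± 0.33 (adjusted p = 0.0619), and EPHA8 by 0.94 ± 0.37 (adjusted p = 0.119, and 0.0233 with its 2 detected probes averaged). EPHA5, EPHA7, EPHB1 and EPHB6 were detected on no array.

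Ligands and their known receptors can be set side by side by their calls. SLIT2 and its receptor ROBO1 rose, and its other receptor ROBO2 did not pass. EFNB3 rose, as did EPHA4, which binds ephrins of both types. ROBO3 and its ligand NELL2, a gene outside the members taken up below, both rose. UNC5A rose and its ligand NTN1 did not pass. SEMA3A fell while its co-receptor NRP1 rose, and SEMA3F did not pass while its co-receptor NRP2 fell. SEMA6A rose and its receptors PLXNA2 and PLXNA4 did not pass. PLXNB1 fell and its ligand SEMA4D did not pass, and the same holds for PLXNB2 and SEMA4C. Neither EFNB2 nor EPHB4 passed. EPHA2 fell, and its ligand EFNA1 did not pass. These statements compare calls in 1 contrast, and no difference between a ligand and its receptor was tested.

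Each resistant line was also set against NCI-N87 alone, with 1 array on each side and no test. N87-TR1 had 19 members at least 2-fold higher and 11 at least 2-fold lower, where 19.2% and 17.1% of all 12478 genes were. N87-TR2 had 15 and 14, where 18.7% and 16.5% of all genes were. N87-TR3 had 21 and 12, where 22.2% and 17.6% were, and N87-TR4 had 15 and 15, where 18.4% and 16.3% were. As shares of the 47 members these were 40.4% and 23.4% for N87-TR1, 31.9% and 29.8% for N87-TR2, 44.7% and 25.5% for N87-TR3, and 31.9% in each direction for N87-TR4. The 4 comparisons share the NCI-N87 array. The 20 called members had the same sign in all 4 lines, which their selection on the mean of these lines against this array nearly requires.

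Within the resistant lines, each line was compared with the other 3 by limma, the lone array being assumed to vary like the rest. No member passed in any line, where 0% of all genes passed in either direction for the lines other than N87-TR3, and 0.0721% higher and 0.882% lower for N87-TR3. At an unadjusted p under 0.05, N87-TR1 had 1 member and 4.13% of all genes, N87-TR2 had 3 members and 2.60%, N87-TR3 had 14 members and 18.9%, and N87-TR4 had 2 members and 1.41%. In N87-TR3 the 14 comprised 9 higher members, 4 of them plexins, and 5 lower. Its 2 largest differences were PLXNA3 at 1.60 ± 0.32 (adjusted p = 0.0832) and NTN4 at -1.46 ± 0.40 (adjusted p = 0.140). PLXNA3 passed in N87-TR3 without background correction (adjusted p = 0.0444), on the authors' processed values (0.0481) and among genes detected on all 5 arrays (0.0384). SEMA3E passed there without background correction (0.0479) and with a variance trend (0.0438). For these alternatives the share of all genes passing in N87-TR3 was not computed. N87-TR1 differed most in SEMA3F, by 1.45 ± 0.63, and EPHA3, by -1.25 ± 0.31. N87-TR2 differed most in SEMA3A, by 1.62 ± 0.34, and EFNB2, by -1.19 ± 0.41. N87-TR4 differed most in SEMA3F, by -1.38 ± 0.65, and EPHA2, by -1.26 ± 0.43, and adjusted p-values were close to 1 in these 3 lines.

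**Figure D3:**
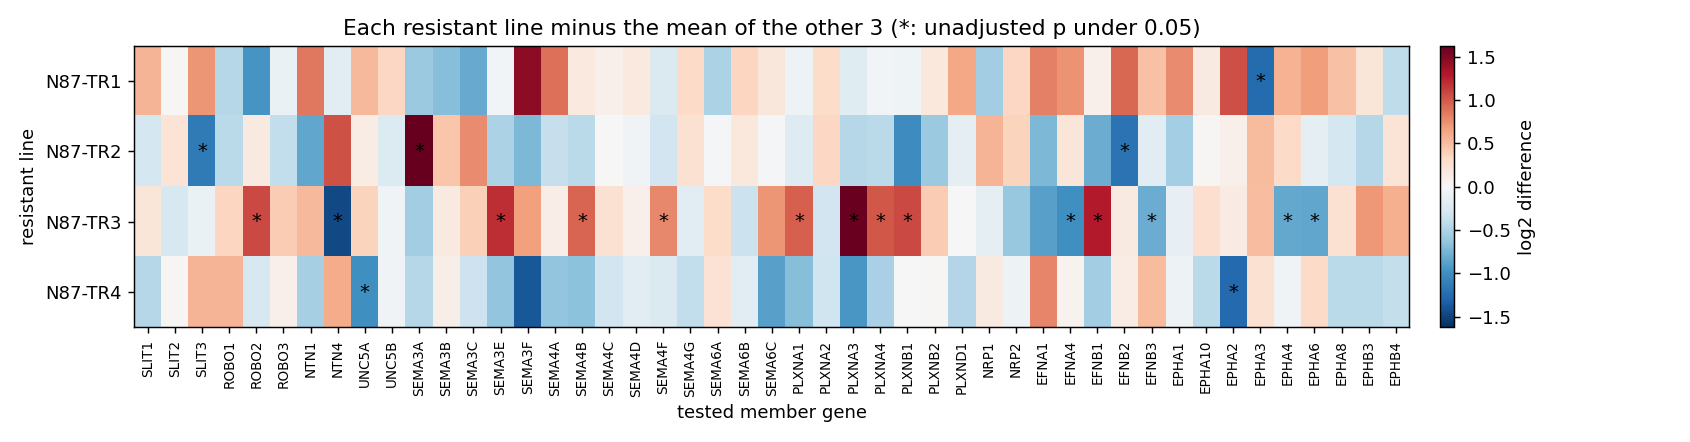
Log2 difference of each resistant line (rows) from the mean of the other 3, for the 47 tested members (columns), on a colour scale from blue for lower to red for higher. Asterisks mark an unadjusted p under 0.05 and number 14 in N87-TR3 and from 1 to 3 in each other line.

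Other genes of the pathway were taken from a list of 81 further receptors, co-receptors and intracellular effectors. Of these 58 were tested, 17 rose (29.3%), 6 fell (10.3%) and 35 did not pass, where 12.5% of all tested genes rose and 10.5% fell. The list's median log2 difference was 0.30, against 0.07 over all genes. Here too the filter matters, since 43 list genes were detected in NCI-N87, against 52 to 56 in the resistant lines. Among the 39 list genes detected on all 5 arrays, 8 rose and 3 fell (20.5% and 7.69%). Of all tested genes detected on all 5 arrays, 9.11% rose and 6.90% fell. The largest rise was EVL, an actin regulator of the Ena/VASP family that acts downstream of Robo, at levels of 13.17, 13.19, 12.81 and 13.18 in N87-TR1 to N87-TR4, against an undetected 4.98 in NCI-N87 (at least 101-fold, adjusted p = 3.78e-05). NELL2, a secreted ligand of ROBO3, stood at 10.70, 10.87, 10.45 and 10.39, against 5.96 in NCI-N87 (at least 18.1-fold, adjusted p = 0.000150). The adhesion receptors CNTN1 and NRCAM were at least 6.69-fold and 7.53-fold higher, and DPYSL4, of the collapsin response mediator family of semaphorin signalling, at least 8.11-fold. These 5 had no detected probe in NCI-N87.

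The largest fall on the list was ADAM10, the protease that sheds ephrins, at 8.49, 8.99, 6.32 and 8.85 in N87-TR1 to N87-TR4, against 12.11 in NCI-N87 (log2 difference -3.95 ± 0.96, adjusted p = 0.0272). ADAM10 was detected in 3 of the 4 resistant lines. RAC2, a GTPase, was detected in 1 of the 4, so its size rests mostly on signals near background, and it differed by -3.33 ± 0.33 (adjusted p = 0.000681), the actin-binding ABLIM1 by -2.40 ± 0.40 (adjusted p = 0.00643), VASP by -2.33 ± 0.40 (adjusted p = 0.00726) and the heparan sulphate carrier GPC1, which binds Slits, by -2.25 ± 0.52 (adjusted p = 0.0223). The call of ADAM10 was lost without N87-TR1 (adjusted p = 0.0601) and without a detection filter (0.0630), and that of GPC1 without N87-TR1 (0.0511) and without N87-TR4 (0.0531). Within the Ena/VASP family VASP fell while EVL and ENAH rose, ENAH by 2.57 ± 0.30 (adjusted p = 0.00138). The GTPase RAC1 differed by -0.31 ± 0.34 and did not pass (adjusted p = 0.566). With its detected probes averaged, RAC1 differed by -1.47 (adjusted p = 0.0299), so its probes disagree in size.

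**Figure D4:**
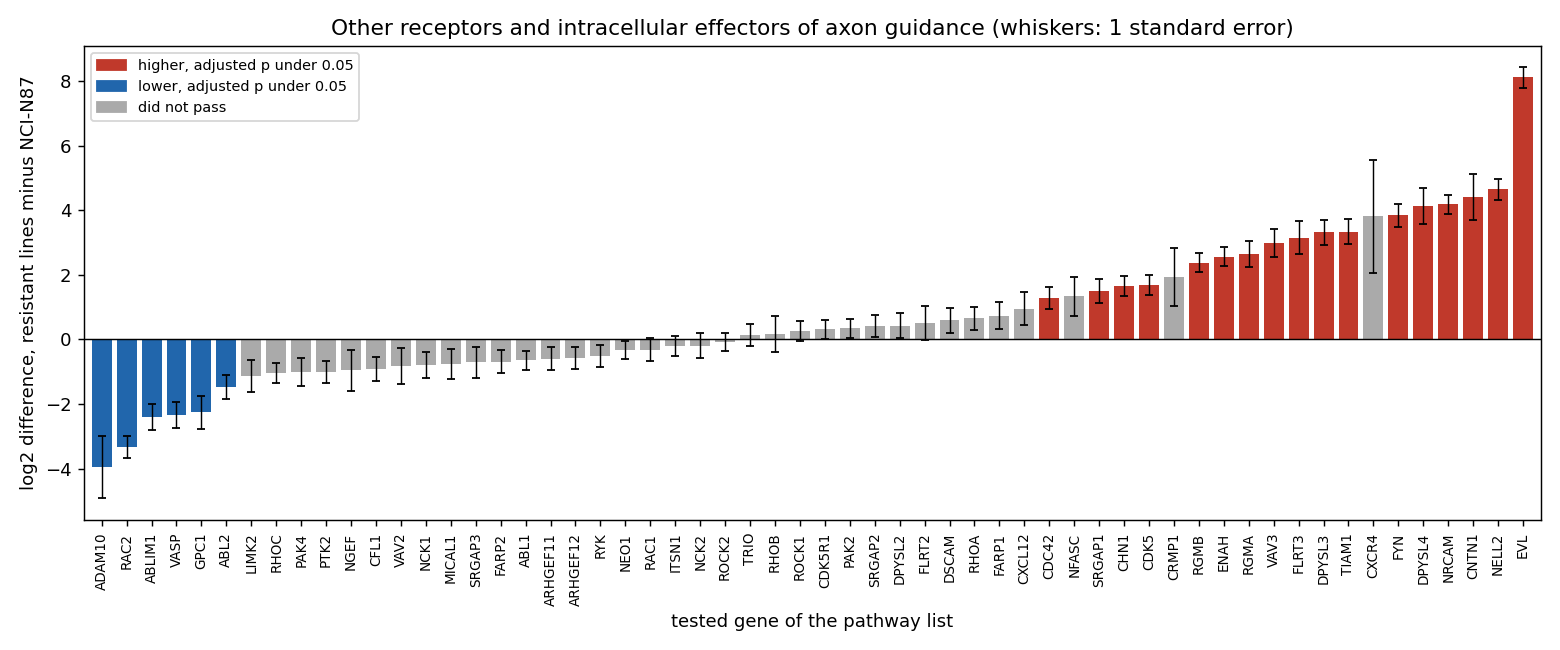
Log2 difference, resistant lines minus NCI-N87, of the 58 tested genes of the pathway list, ordered by value, with limma standard errors as whiskers. Red bars are the 17 that rose, blue bars the 6 that fell and grey bars the 35 that did not pass, from -3.95 for ADAM10 to 8.11 for EVL.

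Genes with several detected probes gave a check of only a few of these values. Of the 9 tested members with more than 1 detected probe, 8 had the same sign for all of them. The exception was SEMA4F, whose probes differed by 0.68 and -0.23, and which did not pass. Only NRP1 and NRP2 of the 9 were called, so every other called member rests on 1 detected probe. For EPHA8, NRP1, SEMA3E, SLIT3 and UNC5B the probe not used was detected in resistant lines only, so the detection filter favours the same sign there. The NRP2 probe with a log2 difference of -2.85 was detected in NCI-N87 only, which favours its sign in the same way. A further 14 tested members had another probe that was detected on no array.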

How the data were processed

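Total RNA of 5 cell lines was labelled and hybridised to Illumina BeadChips, 1 array per line. The authors deposited a scanner-level intensity for each of 47318 probes, not normalised, with a detection p-value beside it per the file headers. GenomeStudio, with no version, is the tool in the submitters' processing notes. A deposited second table holds the authors' processed intensity, linear, uncentred and with a median of 146.3 on each array. For its normalisation, nothing is given in the sources used; it served as an alternative.

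Scanner signals were corrected and quantile normalised by neqc (offset 16; limma 3.58.1, R 4.3.3). Probes were named from the platform annotation, symbols updated through RefSeq (GRCh38.p14). Of the probes, 30111 had 1 gene symbol, 8 several and 17199 are unnamed here. The 12478 tested genes had a probe detected (p under 0.01) on 1 or more arrays, and the detected probe of highest mean stood for the gene. Groups follow the labelled sensitivity. The fits used lmFit and eBayes, two-sided. The main comparison had 3 residual and 3.83 prior degrees of freedom, and 1 line against the other 3 had 2 residual ones. Both fits were also run on simulated data in which every array had the spread of the resistant lines. That simulation cannot check whether the NCI-N87 array varies like them. Where every probe of a gene was undetected in a group, the fold is "at least" the brighter mean over the dimmer group's, each of its arrays taken at its lowest detected level or at the probe's own if higher. Errors after differences are standard errors, and array number limits the precision. Alternatives changed background correction, offset, normalisation, source table, detection filter, probe rule, variance model and resistant lines used.

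The members and lists were chosen with earlier results of these data known. All called members are named with all 5 values, as are the 10 members of highest mean that did not pass. For each line against the other 3 the 2 largest differences are named, and for the pathway list the 5 largest in each direction, with ENAH and RAC1 added after their values were seen, as were other values of members outside this rule.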

Additional observations from a re-analysis of the deposited data

Results flagged for a closer look

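Among the 47 tested members, 3 had a resistant line whose gap to the nearest other line exceeded Dixon's 95% critical value for 4 samples, and chance flags about 1 in 20 groups. SEMA3A was at 9.31 in N87-TR2, where the 3 other resistant lines lay between 7.64 and 7.75. SEMA4F was at 10.25 in N87-TR3, where the others lay between 9.43 and 9.49. EPHA3 was at 7.03 in N87-TR1, where the others lay between 8.15 and 8.35.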

How the results depend on the processing

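Of the 20 called members, 17 kept their call and all kept their direction under every alternative that tested them. SEMA4B, ROBO3 and EPHB3 are the exceptions for the call, as given above, and 7 further members passed under some alternative. Of these, EFNB1, PLXNA1, PLXNA2, PLXNA3 and ROBO2 passed without N87-TR3, where the calls over all genes also rose, from 2880 to 3761. EFNB1, at an adjusted p of 0.0524, passed with the background left in (0.0273), the larger offset of 50 (0.0434), cyclic loess (0.0388), 75th percentile scaling (0.0398), the authors' values (0.0277), detection on all 5 arrays (0.0453), averaged probes (0.0498), a variance trend (0.0494) and, as above, without N87-TR3. Requiring detection on all 5 arrays left 23 members and 39 pathway genes, so its counts are smaller by construction: 1 member was higher and 5 lower, and 8 pathway genes were higher and 3 lower. Of all 8701 genes under that filter, 9.55% were higher and 7.25% lower. Under that filter the members at least 2-fold higher and lower numbered 4 and 6 in N87-TR1, 3 and 8 in N87-TR2, 7 and 6 in N87-TR3, and 2 and 9 in N87-TR4. The share of all genes at least 2-fold apart was not computed under it, so these counts have no background. In N87-TR3 against the other 3, the count of higher members was 2 without background correction, and 1 with the authors' values, with detection on all 5 arrays and with a variance trend, where it was 0 in the main setting; the cause was not tested. The share of all genes passing in N87-TR3 was not computed under these alternatives, so these member counts have no background. Differences of genes near background shrank without background correction, and the log2 difference of SLIT2 ranged from 6.25 to 8.18 and that of ROBO1 from 2.41 to 4.13. Over all genes, 2880 passed in the main setting, 3761 without N87-TR3 and 2099 without N87-TR4. No paired analysis was possible because NCI-N87 has 1 array.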
